A study of Mus musculus with 8 samples.

Results

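Potassium channel subunits were examined in the kidney of homozygous Scube3 N294K/N294K mice. They were taken as the genes whose symbol in the array's probe annotation starts with Kcn, except Kcnj1. These were 79 of the 16593 genes named on the array, with 117 of 25697 probes. Whole kidney RNA was taken from males of the C3HeB/FeJ strain at 29 wk of age, 4 of them wild type and 4 homozygous for the N294K allele of Scube3. An Illumina Mouse Ref8 v2.0 array was hybridised for each mouse. The mutation exchanges an amino acid of the secreted protein Scube3, so the level of its transcript does not check the labels. Both genotypes came from one inbred strain and one sex, and the allele was present in every cell from conception. The labels name no slide or scan date, and an effect of array order that followed genotype cannot be told apart from it.

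Potassium channels let potassium ions move down their gradient across the cell membrane. In kidney tubules, basolateral channels recycle the potassium that the sodium pump brings in and set the membrane voltage, while luminal channels let potassium pass into the urine. The pore is built by alpha subunits, which fall into voltage-gated, inwardly rectifying, tandem pore-domain and calcium- or sodium-activated families. Accessory subunits carry no pore and change the gating or the membrane placement of the channel they join. The question asked was which of these subunits differed in transcript level between mutant and wild type kidney.

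Most of the family lay at or below the arrays' background. A probe was counted as above background on an array when its detection p-value, which sets its brightness against that of the array's negative controls, was under 0.05. Of the 117 probes, 17 were above background on all 8 arrays, 29 on at least 4, 16 on 1 to 3 and 72 on none. Only the 29 probes on at least 4 arrays, which belong to 21 genes, were tested, and the 58 other genes have no test. The voltage-gated alpha subunits, many of them best known from nerve and muscle, had 3 tested probes of 42, and the accessory subunits of voltage-gated channels had 12 of 22. Inward rectifiers had 5 tested probes of 17, tandem pore-domain channels 6 of 22, and calcium- and sodium-activated channels 3 of 14. On each array, 23 to 31 of the family's probes were above background. Of all probes on the array, 12914 were tested.

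**Figure D1:**
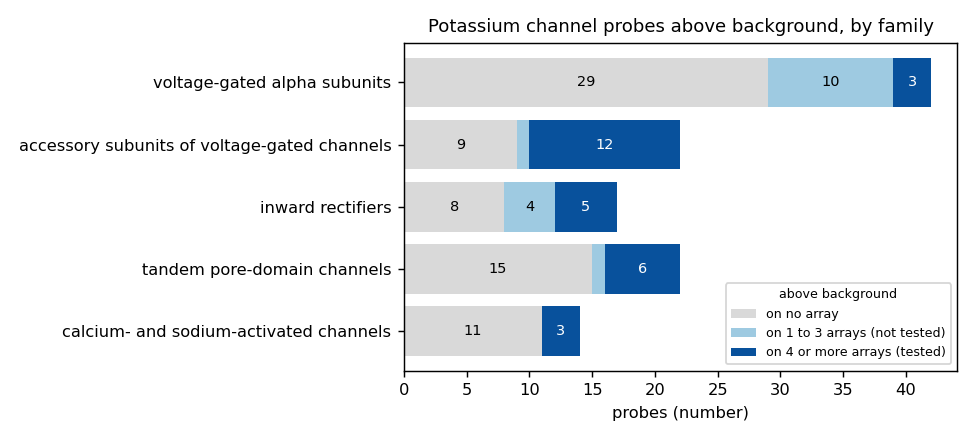
Probes of each potassium channel family (x axis, number of probes), split by the number of arrays on which they were above background. In the voltage-gated alpha subunits 29 of 42 probes were above background on no array, while 12 of 22 probes of the accessory subunits were tested.

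The arrays carried the transcripts of the main tubule segments. Slc34a1, the phosphate transporter of the proximal tubule, had a mean log2 intensity of 14.19 in wild type and 14.20 in mutant kidney. The summed linear intensity of 5 thick ascending limb markers ranged from 14130 to 16720 in wild type and from 8930 to 11390 in mutant mice, with 4 of the 5 lower and Bsnd higher in the mutants. Umod and Slc12a1, the members with the highest intensity in this sum, were named by the study as down-regulated on these arrays. Their fall, and that of the sum, is not independent of that choice. Of the 3 tested distal convoluted tubule markers, 2 were higher, and their summed intensity was 6504 to 7656 against 7868 to 9053. All 4 tested urothelial markers were higher, at 113.4 to 154.7 against 205.3 to 308.8. Of 5 proximal tubule markers 4 were measured and 1, Lrp2, was lower. The marker sums of principal cells (2761 to 3063 against 3000 to 3373) and intercalated cells (1741 to 2243 against 2130 to 2460) overlapped, with 1 of 4 and 0 of 4 tested markers called. Neurons and striated muscle, where many channels of this family are abundant, were at 39.85 to 51.52 against 39.12 to 46.93 and at 29.29 to 37.16 against 33.23 to 43.47 for 5 markers each. The neuronal markers Snap25, Syt1 and Elavl4 and the muscle markers Ckm, Acta1, Myh7 and Tnnt3 were above background on no array. Tubb3, Uchl1 and Actn2 were above it on 4, 5 and 6 arrays and did not pass the test. No adrenal marker of 5 was tested. Among the other lists, 1 of 5 endothelial and 1 of 2 tested podocyte markers were lower, and none of 2 tested leukocyte or 3 red blood cell markers was called. In whole kidney, fewer cells of a type and less RNA per cell cannot be told apart.

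Among the 29 tested probes, 2 rose in the mutants and none fell. They were 1 probe of Kcne1, the accessory subunit that slows the opening of the Kcnq1 channel, and the single probe of Kcnn1, a small-conductance channel opened by calcium. Differences were fitted with limma over all 12914 probes, and a probe was called at a Benjamini-Hochberg adjusted p under 0.05. Over all tested probes, 2160 or 16.7% were called, 7.83% as higher and 8.9% as lower in the mutants. Median scaling of the arrays in place of quantile normalization turned the split of all calls from 1011 higher and 1149 lower into 241 higher and 1588 lower, and left no channel probe called. At an unadjusted p under 0.05 there were 5 of the 29 channel probes, against 34% of all tested probes. The family's probes were mostly dim: 22 had a mean log2 intensity under 6 and 7 of 6 or above, with 1 call in each band. In the same bands, 9.73% of 3411 probes and 19.2% of 9503 probes were called.

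The differences over the family were small. The median log2 fold change was 0.05 over the 29 channel probes and 0.01 over all tested probes, with 17 channel probes above 0 and 12 below. The median size of the difference, whatever its sign, was 0.116 for the channel probes and 0.139 for all probes. Their median SE was 0.108 against 0.0839. The log2 fold changes ranged from -0.27 for a Kcnj15 probe to 0.41 for the called Kcne1 probe. All 4 mutants lay above all 4 wild type mice for 3 of the 29 probes, those of Kcne1, Kcnn1 and Kcnj3, and for none below. Over all tested probes, 23.8% showed genotypes that did not overlap.

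**Figure D2:**
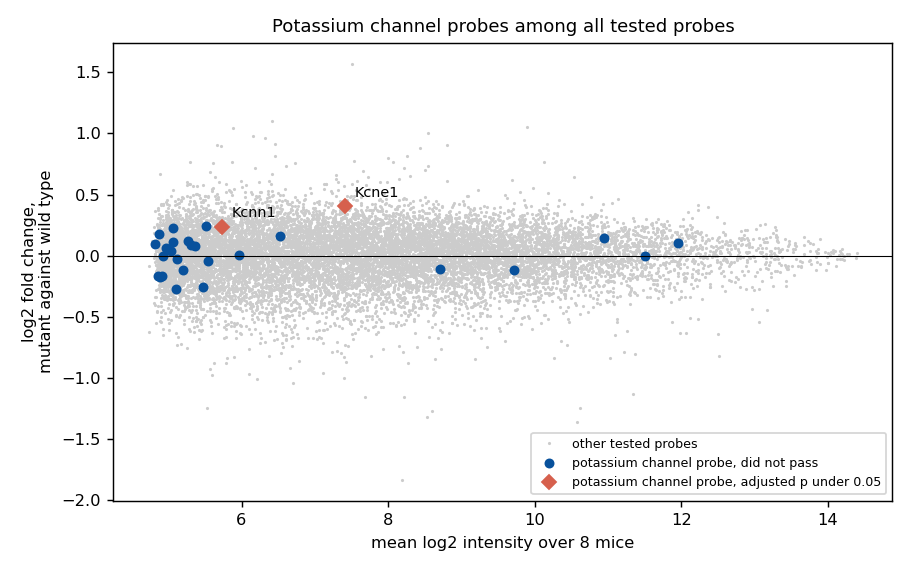
Log2 fold change of homozygous mutant against wild type (y axis) by mean log2 intensity over 8 mice (x axis) for all 12914 tested probes, with the 29 potassium channel probes in colour. The channel probes lie between -0.27 and 0.41, and 22 of them have a mean log2 intensity under 6.

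**Figure D3:**
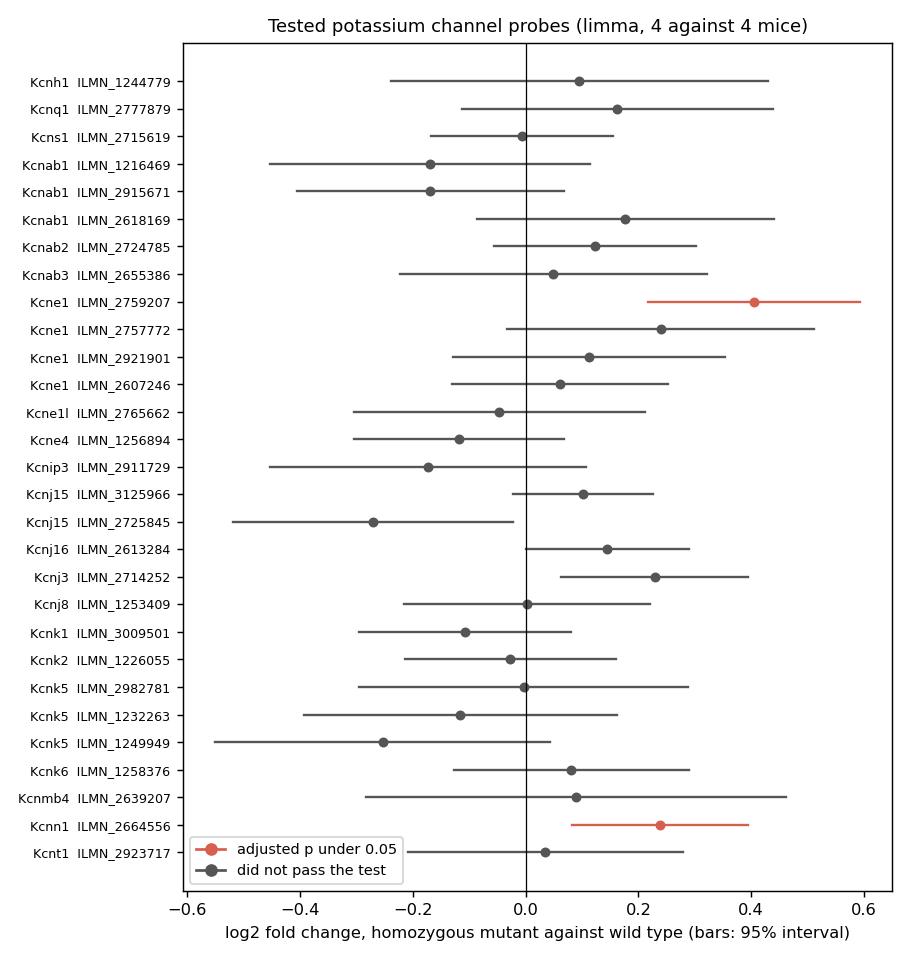
Log2 fold change (point) with its 95% interval (bar) for each of the 29 tested potassium channel probes, ordered by family. Kcne1 ILMN_2759207 at 0.41 and Kcnn1 at 0.24 passed the test, and the other 27 probes did not.

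Kcne1 encodes a single-span accessory subunit that joins Kcnq1 in the proximal tubule, the heart and the inner ear. The called probe, ILMN_2759207, read 7.16, 7.22, 7.30 and 7.17 on the log2 scale in wild type replicates 1 to 4. In mutant replicates 1 to 4 it read 7.53, 7.45, 7.83 and 7.66. Every mutant was above every wild type mouse, with a gap of 0.16 between the groups. The mean was 7.21 ± 0.06 (SD, n = 4) in wild type and 7.62 ± 0.16 (SD, n = 4) in mutant kidney. The log2 fold change of 0.41 (SE 0.08, 95% interval 0.22 to 0.59), a 1.32-fold rise, had an adjusted p of 0.01421. Before background correction and normalization the scanned intensities overlapped, at 256.1 to 276.3 in wild type and 254.9 to 334.0 in mutant mice. The array medians of the scanned intensity ran from 133.2 to 138.8 in wild type and from 127.5 to 134.7 in mutant mice.

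Kcne1 had 3 further probes, all designed on the same transcript and nearer to background. ILMN_2757772 had means of 5.40 ± 0.18 and 5.64 ± 0.22 (SD, n = 4 each) and differed by 0.24 (adjusted p = 0.193). ILMN_2921901 differed by 0.11 and ILMN_2607246 by 0.06, with adjusted p of 0.4895 and 0.6537. The genotypes overlapped for all 3 probes, and the 95% interval of ILMN_2607246 was -0.13 to 0.25. All 4 probes had a higher mean in the mutants, and 1 passed the test. The difference between the probes was not tested. The call held in each of the 8 fits that left out 1 mouse (log2 fold change 0.34 to 0.46). It was kept without background correction, at 0.25 (adjusted p = 0.00508), and lost with median scaling, at 0.31 (adjusted p = 0.075), and the fold is under the 1.6 that the study's methods ask for.

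Kcnq1, the pore-forming partner of Kcne1, did not pass the test. Its tested probe read 6.57, 6.42, 6.40 and 6.37 in wild type and 6.39, 6.54, 6.49 and 7.00 in mutant mice. Mutant replicate 4 stood above the 7 other mice, whose values overlapped. The log2 fold change was 0.16 (SE 0.12, adjusted p = 0.3774), and without that mouse it was 0.03. A second Kcnq1 probe was above background on 1 array only. Of the other Kcne subunits, Kcne4 differed by -0.12 (adjusted p = 0.3453) and Kcne1l by -0.05 (adjusted p = 0.8073), while Kcne2, a partner of Kcnq1 in the stomach, and Kcne3 were not tested.

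The beta subunits of voltage-gated channels, cytoplasmic proteins that attach to Shaker-type channels, did not pass either. The 3 probes of Kcnab1 had log2 fold changes of -0.17, -0.17 and 0.18, so that its probes differed in sign. Each of them was above background on only 4 arrays. Kcnab2 differed by 0.12 (adjusted p = 0.306) and Kcnab3 by 0.05 (adjusted p = 0.8077). Kcnip3, a calcium-binding partner of the Kv4 channels, differed by -0.17 (adjusted p = 0.3552). On the authors' normalized intensities it differed by 0.01 after values under 16 were raised to 16, which held for most of its values. Before that step its means on their scale were 14.6 in wild type and 10.1 in mutant mice. The other tested alpha subunits of this class were Kcnh1, at 0.10 (adjusted p = 0.6886), and Kcns1, a subunit that is silent on its own, at -0.01 (adjusted p = 0.957).

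Kcnn1 was the only small-conductance calcium-activated channel that could be tested. Its probe read 5.56, 5.62, 5.69 and 5.61 in wild type and 5.88, 5.99, 5.72 and 5.83 in mutant replicates 1 to 4. All mutants were above all wild type mice, by 0.03 at the narrowest point, between mutant replicate 3 and wild type replicate 3. The means were 5.62 ± 0.06 and 5.86 ± 0.11 (SD, n = 4 each), and the log2 fold change was 0.24 (SE 0.07, 95% interval 0.08 to 0.39, adjusted p = 0.04398), or 1.18-fold. The scanned intensities of this probe did not separate the genotypes, at 155.0 to 161.4 in wild type and 156.1 to 158.2 in mutant mice, with means of 157.5 and 157.0. The separation appeared after background correction and normalization, and the part of the array medians given above in it was not tested. The call was kept in 4 of 17 other settings, of which 8 each left out 1 mouse. Among those 8 it was kept only without mutant replicate 3, and adjusted p ran from 0.03589 to 0.1025. Over the 17 settings the log2 fold change ran from 0.08, without background correction, to 0.35, on the authors' normalized intensities.

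For the called genes, promoter sequence was at hand for Kcnn1, which RefSeq (GRCm38.p6) annotates with a pair of start sites on the minus strand of chromosome 8. The 250 bases upstream of each start are shown because a single probe does not tell which of them the kidney used. Capitals mark a GC box.
Kcnn1, chr8:70863259-70863508: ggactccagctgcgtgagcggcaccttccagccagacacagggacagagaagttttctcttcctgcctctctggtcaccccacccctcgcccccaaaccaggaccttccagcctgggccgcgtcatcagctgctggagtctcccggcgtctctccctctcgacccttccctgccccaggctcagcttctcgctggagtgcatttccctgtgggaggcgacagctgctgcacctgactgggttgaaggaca
Kcnn1, chr8:70857009-70857258: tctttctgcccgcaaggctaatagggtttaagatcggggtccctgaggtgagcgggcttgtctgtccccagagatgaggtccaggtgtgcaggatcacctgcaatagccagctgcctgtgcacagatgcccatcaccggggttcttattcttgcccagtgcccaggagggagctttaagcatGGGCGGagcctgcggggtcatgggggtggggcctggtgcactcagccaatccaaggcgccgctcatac

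Both windows were searched on both strands for a TATA box (TATAAA), a GC box (GGGCGG) and a cyclic AMP response element (TGACGTCA), motifs that do not overlap each other. The first window held none of these strings, and the second held 1 GC box. Among 32851 promoter windows of the same length, 12.4% held the TATA box, 32.7% the GC box and 1.55% the response element. The GC content was 63.6% and 60.4%, against a median of 52.4% over all windows. A match is only a match of letters.

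**Figure D4:**
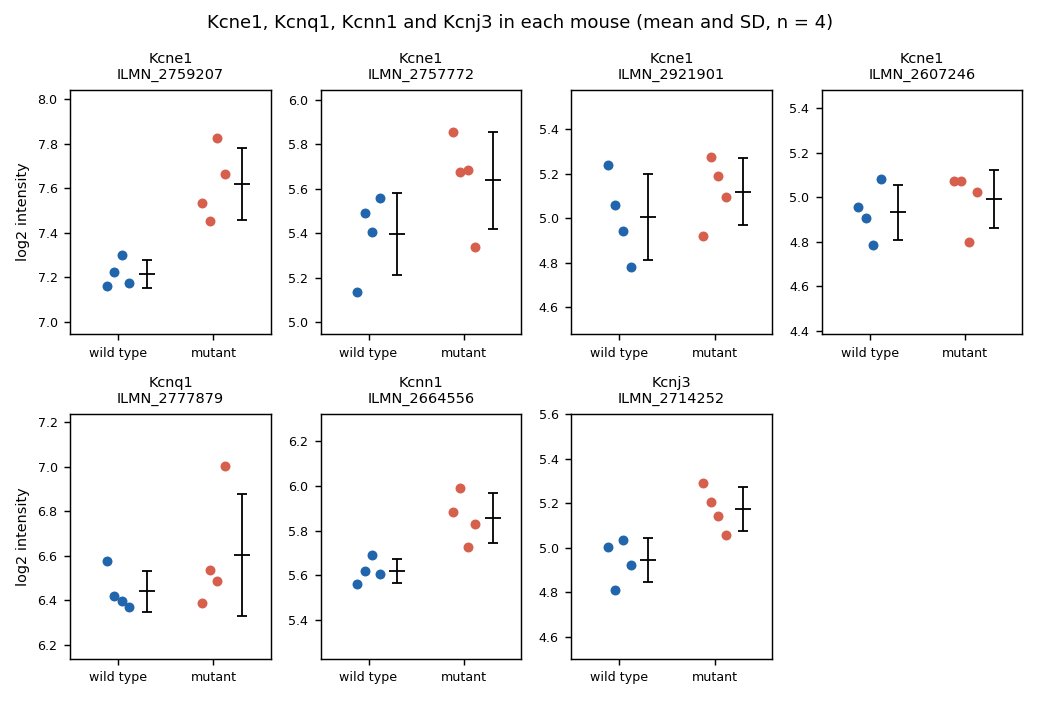
Background-corrected and quantile-normalized log2 intensity (y axis, each panel 1.1 log2 units high) in each wild type and homozygous mutant mouse for the tested probes of Kcne1, Kcnq1, Kcnn1 and Kcnj3, with the mean and SD (n = 4). The mutants lie above the wild type mice for Kcne1 ILMN_2759207, Kcnn1 and Kcnj3, and overlap with them for the other 4 probes.

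Of the inward rectifiers of the basolateral membrane, the Kcnj16 probe and a bright probe of Kcnj15 differed little. The dim Kcnj15 probes are given below. Kcnj16 encodes a subunit that forms no working channel alone in most cells and pairs with Kcnj10 or Kcnj15 in the distal nephron and the proximal tubule. It read 10.80, 10.98, 10.90 and 10.83 in wild type and 11.05, 11.08, 11.03 and 10.93 in mutant mice, and 1 wild type mouse lay above the lowest mutant. The log2 fold change was 0.15 (SE 0.06, 95% interval 0.0013 to 0.29, adjusted p = 0.1442).

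Kcnj15, an inward rectifier of the proximal tubule, is one of the genes that the study named from these arrays, as down-regulated in the mutants. Its values here are not independent of that choice. Its 3 probes differed in direction. The bright probe ILMN_3125966 read 11.88, 11.86, 11.96 and 11.89 in wild type and 12.05, 12.01, 11.94 and 12.001 in mutant mice. Its groups overlapped through wild type replicate 3 and mutant replicate 3, and the log2 fold change was 0.10 (SE 0.06, adjusted p = 0.2239). ILMN_2725845, designed on another Kcnj15 transcript, read 5.23, 5.24, 5.37 and 5.16 in wild type and 4.68, 5.26, 4.96 and 5.02 in mutant mice. Mutant replicate 2 lay within the wild type range and the other 3 mutants below it. The log2 fold change was -0.27 (SE 0.11, adjusted p = 0.1184), and it passed the test only without mutant replicate 2, at -0.36 (adjusted p = 0.04577). Without mutant replicate 1 it was -0.17 (adjusted p = 0.226), and without background correction -0.07 (adjusted p = 0.2436). ILMN_2725844, designed on that same transcript, was above background in 2 of 4 wild type mice and in none of the mutants. Its measured means were 4.99 and 4.58, and with the mutants set at their arrays' detection limit it was 1.06-fold lower in the mutants. This sets the mean wild type log2 value against the lowest intensity among probes above background on each mutant array. The wild type mean includes replicates 3 and 4, at 4.73 and 4.77, which were not above background. The value is therefore not a lower bound on the fold. On the authors' normalized scale, with no value raised to 16, ILMN_2725844 read 9.04 to 23.5 in wild type and 3.01 to 7.71 in mutant mice. On that scale ILMN_2725845 read 19.3 to 25.4 and 7.72 to 22.3. The bright probe, in the other direction, read 3700.8 to 3986.8 in wild type and 3927.9 to 4262.5 in mutant mice. The difference between the bright probe and the dim ones was not tested.

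Kcnj3, a G protein-gated rectifier best known from heart and brain, had mutant values of 5.06 to 5.29 above wild type values of 4.81 to 5.04. The groups did not overlap, and the log2 fold change of 0.23 (SE 0.07) had an adjusted p of 0.06108. It was above background in 3 wild type and 4 mutant mice. Kcnj8, the pore of the vascular ATP-sensitive channel, had means of 5.97 and 5.97 and a log2 fold change of 0.0028 (95% interval -0.22 to 0.22). Smooth muscle markers, 0 of 4 tested called, summed to 1047 to 1400 against 1111 to 1323. No other Kcnj gene was tested, and Kcnj10, Kcnj11 and Kcnj13 were not analysed here.

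Tandem pore-domain channels carry background potassium currents. None of their 6 tested probes, which belong to 4 genes, passed. Of the 6, 5 had a lower mean in the mutants, and all 3 Kcnk5 probes were among these 5. Over all tested probes, 52.8% had a higher mean in the mutants. Kcnk5, a channel of the proximal tubule opened by alkaline pH, was above background on all arrays with each of its 3 probes. ILMN_2982781 read 11.53, 11.41, 11.83 and 11.24 in wild type and 11.34, 11.76, 11.40 and 11.48 in mutant mice. ILMN_1232263 read 9.85, 9.69, 10.01 and 9.58 in wild type and 9.56, 9.98, 9.47 and 9.65 in mutant mice. On both probes the highest mice were wild type replicate 3 and mutant replicate 2. All 3 Kcnk5 probes placed the wild type mice in the same order, but not the mutants. Mutant replicate 1 was the lowest mutant on ILMN_2982781 and the highest on ILMN_1249949. The log2 fold changes of ILMN_2982781 and ILMN_1232263 were -0.0032 (95% interval -0.30 to 0.29) and -0.12 (adjusted p = 0.5392). They were small beside the spread of 11.24 to 11.83 among the wild type mice on the first probe. On the dim probe ILMN_1249949 the mutants differed by -0.25 (SE 0.13, adjusted p = 0.2065).

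Kcnk1, a weakly conducting channel of tubule cells, read 8.999, 8.69, 8.69 and 8.70 in wild type and 8.68, 8.70, 8.72 and 8.54 in mutant mice. Wild type replicate 1 stood above the other 7 mice, which overlapped. The log2 fold change was -0.11 (SE 0.08, adjusted p = 0.394), and without that mouse it was -0.03. Kcnk2, opened by membrane stretch, differed by -0.03 (adjusted p = 0.8496), and Kcnk6 by 0.08 (adjusted p = 0.5746).

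**Figure D5:**
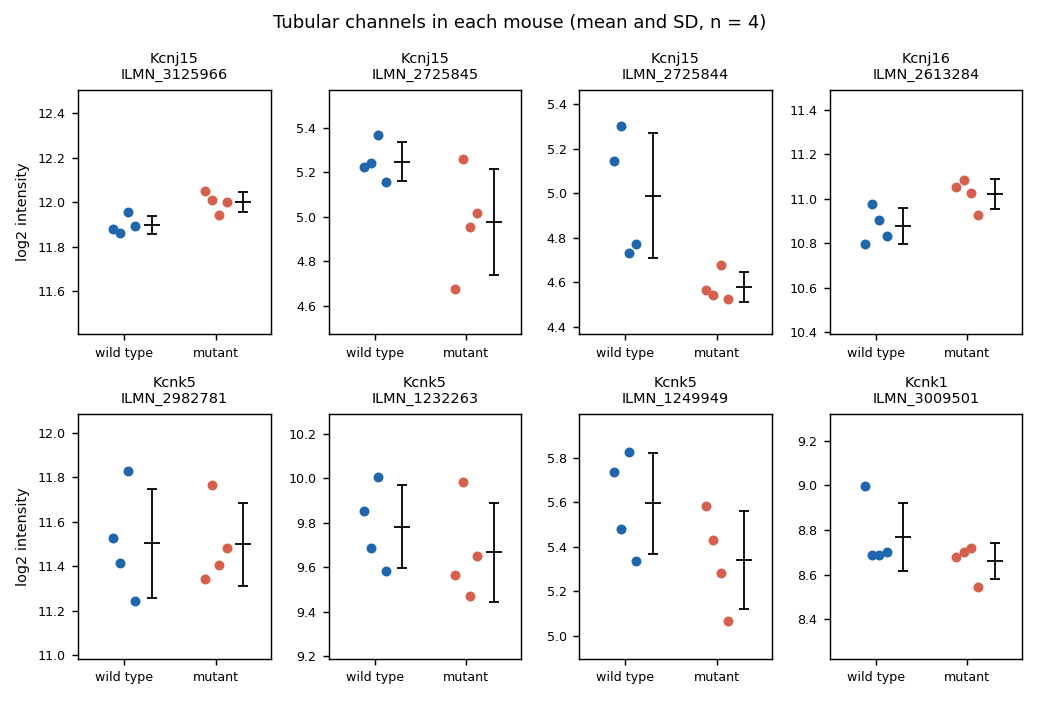
Log2 intensity (y axis, each panel 1.1 log2 units high) in each wild type and homozygous mutant mouse for the probes of Kcnj15, Kcnj16, Kcnk5 and Kcnk1, with the mean and SD (n = 4). The genotypes overlap on every probe except Kcnj15 ILMN_2725844, which was not above background in any mutant. Wild type replicate 1 stands out on Kcnk1, and Kcnk5 values spread within each genotype.

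Of the calcium- and sodium-activated channels, Kcnmb4, a regulatory subunit of the large-conductance channel, differed by 0.09 (SE 0.17, adjusted p = 0.7373), with wild type values from 4.99 to 5.60 and mutant values from 4.97 to 5.75. Kcnt1, opened by sodium, differed by 0.03 (adjusted p = 0.8519). Kcnma1, the pore of the large-conductance channel of flow-dependent potassium secretion, was above background on no array, nor were Kcnmb1, Kcnmb2 and Kcnn4. Kcnmb3 was not analysed here.

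No fold change was fitted for the 88 untested probes in the fit reported, and Kcnj15 ILMN_2725844 was set against the detection limit. Kcna1, which helps set the luminal voltage of the distal convoluted tubule, was above background in 1 wild type mouse, Kcna10 on 2 arrays and Kcne2 on 1. For 5 of the 88 probes the genotypes did not overlap, against 3.38% of all untested probes, and their log2 intensities lay between 4.26 and 5.30. Probes of Kcnh6, Kcnip2 and Kcnj15 were lower and probes of Kcnk15 and Kcnn3 higher in the mutants. The mean differences of their log2 intensities, which were not tested, ran from -0.41 to 0.19. Kcnip2, a calcium-binding partner of the Kv4 channels, is another gene that the study named from these arrays, as reduced in the mutants. It had 3 probes, and none was above background on any array. The scanned intensity of ILMN_2680958 was 124.1 to 130.8 in wild type and 112.0 to 117.6 in mutant mice, below the median of all probes on its array in each mouse. On the authors' normalized scale ILMN_2680958 read 1.57 to 8.46 in wild type and -3.78 to -2.19 in mutant mice. No fold change can be given for a probe below background in both genotypes. The other 2 Kcnip2 probes overlapped between the genotypes.

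Proteins that assemble with these channels, and the other carriers of potassium, were listed beside the family. Of 13 channel partners 5 were tested and none passed, among them Abcc9, the regulatory partner of Kcnj8, at 0.02 (adjusted p = 0.9542), and Dpp6, a partner of the Kv4 channels, at 0.22 (adjusted p = 0.1232). Their median log2 fold change was 0.03. Of 10 tested pumps and cotransporters, 1 rose and 1 fell. Slc12a3, the sodium chloride cotransporter of the distal convoluted tubule, rose by 0.30 (adjusted p = 0.02348). Slc12a1, the furosemide-sensitive cotransporter of the thick ascending limb, fell by 1.14 (adjusted p = 0.002765), and is a gene that the study chose on these arrays. Of 13 tested regulators of renal potassium secretion, 2 rose, the sodium channel subunits Scnn1a and Scnn1b (0.23 and 0.31), and 3 fell, the kinases Stk39 and Sgk1 (-0.32 and -0.48) and the glucocorticoid-inactivating enzyme Hsd11b2 (-0.41). The lists' medians were -0.06 and 0.05, and the part of the marker levels above in these values was not tested.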

How the data were processed

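Kidney RNA of 4 wild type and 4 homozygous mutant mice was grouped by the labelled genotype. The authors deposited each probe's scanned intensity, without background subtraction or normalization, and a detection p-value. A second deposited table holds their intensity after background subtraction and spline normalization in GenomeStudio 2011.1, used as an alternative. In that alternative, values under 16 were raised to 16 before taking logs. Scanned intensities were background-corrected by normexp (offset 16), brought to common quantiles between arrays, logged to base 2 and fitted with limma 3.58.1 (R 4.3.3) without covariates. The fit was tested on simulated data. Probes needed a detection p under 0.05 on 4 arrays, and p was adjusted over all of them (Benjamini-Hochberg). Each probe stood for itself. Intensities were not compared between probes, since probes bind unequally, and 8 arrays limit the precision. Each array was a separate mouse. Alternatives changed background, scaling, offset, filter, variance model, block or test, or left out 1 mouse. Named probes were the called ones, genes the study names, known channels of tubules and vessels, and the brightest. Other members were named to account for the family. Members and lists were chosen with earlier results of these data known. Promoters came from RefSeq.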

Additional observations from a re-analysis of the deposited data

Results flagged for a closer look

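Of 58 groups of 4 mice examined, 3 held 1 mouse far from its group, where chance gives about 5% of groups. Kcnab3 read 5.37 in mutant replicate 1 against 4.86 to 4.93 in the other mutants. Kcne1l read 5.20 in mutant replicate 2 against 5.59 to 5.66 in the other mutants. Kcnk1 read 8.999 in wild type replicate 1 against 8.69 to 8.70 in the other wild type mice.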

How the results depend on the processing

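Of the 2 channel probes called, 1 was called without background correction, with an offset of 50 and without a filter. The count was also 1 with an intensity trend of the prior variance and with the replicate block. It was 0 with median scaling, with a fold above 1.6 added to limma and with SAM at that fold. SAM used the authors' normalized intensities with values under 16 raised to 16. That step left every Kcnip2 probe at a log2 fold change of 0, so SAM could not call them. It left Kcnj15 ILMN_2725844 at 0.87-fold. Over the fits without 1 mouse, 1 to 2 channel probes and 1134 to 1681 of all probes were called. All calls, 2160 in the fit reported, came to 1352 with the replicate block, 82 with limma above 1.6-fold and 234 with SAM above 1.6-fold. Before the fold threshold SAM called 2387 probes, with Kcne1 ILMN_2759207 and Kcnn1 as the 2 channel probes among them. The same-numbered mice correlated at -0.10 to 0.13 in their deviations, and mice of different numbers at -0.19 to 0.14. These weak correlations cannot show whether the numbers pair the mice, and the labels do not say. The replicate block ended the call of Kcnn1. The median log2 fold change of the channel probes was 0.014 without background correction, 0.035 with median scaling, 0.022 on the authors' normalized intensities, 0.026 with an offset of 50, 0.014 without a filter, 0.081 with detection on all 8 arrays, 0.085 at detection p under 0.01, and -0.017 to 0.075 without 1 mouse. Signs turned on small uncalled differences: Kcnj8 at -0.080 with median scaling and -0.062 to 0.083 without 1 mouse, Kcnk5 ILMN_2982781 at 0.0010 on the authors' values and -0.092 to 0.10 without 1 mouse, Kcnk2 at -0.11 to 0.012, Kcnmb4 at -0.042 to 0.22, Kcnt1 at -0.022 to 0.12, Kcnab3 at -0.068 to 0.10, Kcne1l at -0.11 to 0.059, Kcnh1 at -0.017 to 0.19 and Kcns1 at -0.054 to 0.030 without 1 mouse, and Kcnip3 at 0.015 on the authors' values. The Kcnip3 value was taken after values under 16 were raised to 16. Before that step its means on the authors' scale were 14.6 in wild type and 10.1 in mutant mice. The cause of the sign changes was not tested. No fit with slide as a block was made, since no slide is named. Probes near background limit what can be seen in this family.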
